A study of Mus musculus with 17 samples.

Results

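A set of 10 genes of the pathway that couples a nerve signal to fluid and protein secretion were followed in mouse lacrimal gland and its organoids. They are the muscarinic receptor Chrm3, the calcium release channels Itpr2 and Itpr3, the store-operated entry genes Stim1 and Orai2, the ion channels and transporter Kcnn4, Ano1 and Slc12a2, the water channel Aqp5 and the granule protein Rab27b. They were taken by gene symbol, and all 10 were found among the 38293 gene IDs counted in tissue and uncloned organoids and among the 55487 counted in clones. All 10 passed the filter on low counts in both tables.

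Polyadenylated RNA was sequenced from 17 libraries in 7 groups. Clones labelled Pax6-KO, a knockout of an eye transcription factor, gave 2 libraries in differentiation medium (DM) and 2 in expansion medium (EM), 1 per clone, and wild-type (WT) clones gave 2 in DM and 2 in EM. Uncloned WT organoids gave 3 libraries in DM and 3 in EM, and WT gland tissue gave 3, all numbered 6, 7 and 8. Organoids are epithelial cultures grown in basement membrane extract; EM cultures had 7 days in EM and DM cultures had 2 days in EM followed by 5 in DM. For the clones the series text gives 7 days in each medium instead, so their time in DM is uncertain. Each label rests on 2 clonal lines, and nothing in the labels says that a clone was sampled from more than 1 culture per medium. The labels give no age, sex or strain of the animals.

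In lacrimal acinar cells, acetylcholine acting on muscarinic receptors activates a G protein and phospholipase C, and the inositol trisphosphate (IP3) so made opens calcium channels of the endoplasmic reticulum. The calcium rise opens potassium and chloride channels, water follows chloride through aquaporins, and secretory granules fuse with the apical membrane. When the store empties, STIM proteins in its membrane open ORAI channels in the plasma membrane, which sustains the signal.

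Total counts ran from 18282059 to 22500534 in clones and from 12801473 to 19207469 in uncloned organoids and tissue, and levels are CPM, a gene's count relative to its library's total, with trimmed-mean scaling within each table. The tables were counted and scaled apart, so no test crosses them. The top 10 genes by count took 5.96% to 6.72% of an uncloned organoid library and 65.5% to 67.6% of a gland library. Of 10 acinar markers, Prol1 was at 0 in every group, and their summed level was 2169 to 3435 CPM in uncloned DM and 1184 to 1728 CPM in uncloned EM, against 438800 to 475400 CPM in the gland. In every organoid group over 98% of that sum came from Wfdc18 (lowest 98.6%, in WT clones in EM), and the other acinar markers together averaged 3.28 to 10.3 CPM. Pax6 averaged 222 ± 123 CPM in labelled KO clones and 249 ± 42.8 CPM in WT clones in DM (SD, n = 2 each). In EM the same averages were 222 ± 70.7 CPM for labelled KO and 261 ± 21.7 CPM for WT. The transcript level therefore gives no check of the labels, and each direction below is drawn from them.

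Chrm3 is the receptor that carries most cholinergic drive to exocrine glands (ENSMUSG00000046159, GRCm38 chr13:9875486-10360847, minus strand). It had 0 counts in all 4 labelled KO libraries. WT clones had 94 and 72 counts in DM and 91 and 108 in EM, which are 4.30 and 4.10 CPM in DM and 4.06 and 5.06 CPM in EM. The labelled KO libraries all lay below the WT ones, at least 53.7-fold lower in DM (adjusted p = 0.0132) and at least 59.3-fold lower in EM (adjusted p = 0.00615, edgeR's quasi-likelihood test with Benjamini-Hochberg adjustment over all genes). These bounds set 3 counts over the 2 KO libraries against the WT mean and cover counting error only. Without the DM library of KO clone 1 the adjusted p in DM was 0.0883. Among 10301 genes with at least 50 counts in every WT clone library, Chrm3 and Htra4, a serine protease, were the only 2 at 0 in all KO libraries, a minimum chosen after the values were seen.

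The genes tested nearest to Chrm3 were Zmynd11 (chr13:9684833-9765330), with a labelled KO minus WT difference of -0.23 in DM (log2, adjusted p = 0.164) and -0.32 in EM (adjusted p = 0.0654), and, on the other side, Mtr (chr13:12182712-12258113), at -0.13 in DM (adjusted p = 0.88) and 0.43 in EM (adjusted p = 0.532). Neither gene was at 0 in the KO libraries or passed the test. Beyond Zmynd11, Dip2c (chr13:9276528-9668928) passed it in DM (-0.66, adjusted p = 0.0456) and not in EM (-0.13, adjusted p = 0.607). Farther out, Larp4b did not pass in DM (-0.25, adjusted p = 0.172) or EM (-0.28, adjusted p = 0.116). Beyond Mtr, the predicted genes Gm47021 and Gm5445 did not pass in either medium. Whether the KO clones carry a change at the Chrm3 locus was not tested, since only counts over whole genes were analysed here.

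In uncloned organoids Chrm3 was low in both media. It had 2.56, 1.65 and 4.24 CPM in DM and 3.82, 3.84 and 4.30 CPM in EM, against 20.6, 23.5 and 19.7 CPM in the gland. The organoid groups overlapped each other and every organoid library was below every gland library, with log2 fold changes of -2.91 ± 0.28 in DM (SE, adjusted p = 2.16e-06) and -2.41 ± 0.27 in EM (adjusted p = 8.06e-06). DM did not differ from EM past the test (-0.50 ± 0.27, adjusted p = 0.199), though without the DM library of line 8 it did (-0.94, adjusted p = 0.00472). In bulk RNA, fewer cells of a type and less RNA per cell cannot be told apart.

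Sequence upstream of the start is shown for the receptor, absent from the KO libraries, and for Itpr3 and Kcnn4, whose transcripts were higher in DM than in EM in all 3 backgrounds below. The windows are the 250 bases before the RefSeq start on GRCm38.p6, less any base in a GENCODE exon (206 bases were left for Chrm3), and capitals mark the GC box GGGCGG on either strand.
Chrm3, chr13:10360848-10361053, minus strand: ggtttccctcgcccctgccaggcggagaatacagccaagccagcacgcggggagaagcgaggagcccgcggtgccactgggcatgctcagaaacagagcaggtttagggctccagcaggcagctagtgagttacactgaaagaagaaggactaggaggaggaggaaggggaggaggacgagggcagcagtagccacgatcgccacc
Itpr3, chr17:27057054-27057303, plus strand: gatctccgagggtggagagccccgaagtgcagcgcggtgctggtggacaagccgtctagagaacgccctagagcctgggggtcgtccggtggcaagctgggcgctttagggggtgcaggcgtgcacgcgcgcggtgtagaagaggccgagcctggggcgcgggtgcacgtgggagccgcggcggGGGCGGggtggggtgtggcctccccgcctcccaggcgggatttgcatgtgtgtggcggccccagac
Kcnn4, chr7:24370013-24370262, plus strand: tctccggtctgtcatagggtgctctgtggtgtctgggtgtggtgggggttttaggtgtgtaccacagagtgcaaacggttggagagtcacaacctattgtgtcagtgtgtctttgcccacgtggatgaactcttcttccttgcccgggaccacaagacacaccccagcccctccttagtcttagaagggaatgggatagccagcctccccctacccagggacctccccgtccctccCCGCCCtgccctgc
RefSeq gave a start for 8 of the 10 genes. Motifs were counted in the full 250 bases before it, with bases in GENCODE exons kept. GGGCGG was in 7 of the 8, all but Chrm3, and in 32.9% of 27025 promoters of that length. Neither TATAAA (in 3504 of the 27025 promoters) nor TTCACGC, a core of the Pax6 paired-domain site (1.07%), was in any of the 8 windows on either strand. No window is shown for Aqp5, because GENCODE places transcribed exons within it.

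**Figure D1:**
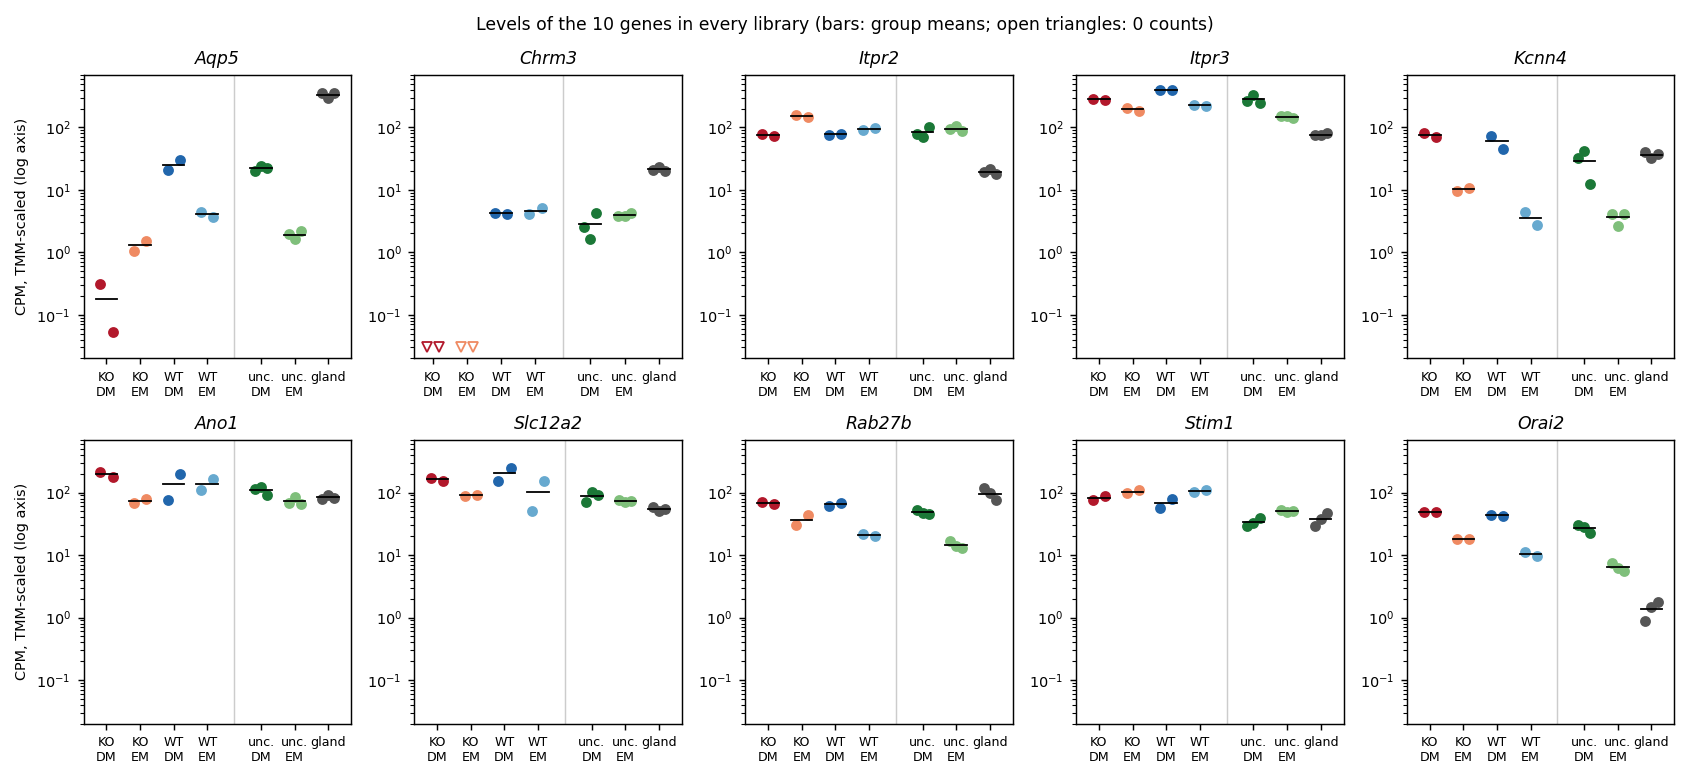
CPM of the 10 genes (log axis) in each library (points) with group means (bars); open triangles mark 0 counts, "unc." is uncloned, and the grey line divides the separately scaled tables. Chrm3 was at 0 in the 4 labelled KO libraries, and Aqp5 had 0.308 and 0.0531 CPM in KO clones in DM, against 294.9 to 353 CPM in the gland.

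The IP3 receptors release calcium from the store, and both lay well above the gland in organoids. Itpr2 (chr6:146108299-146502223, minus strand) had 77.0, 71.2 and 101 CPM in uncloned DM and 93.7, 104 and 86.6 CPM in uncloned EM, against 19.2, 21.7 and 17.7 CPM in the gland (log2 2.09 ± 0.15 in DM and 2.28 ± 0.15 in EM, adjusted p = 1.7e-07 and 9.21e-08). Itpr3 (chr17:27057304-27122223, plus strand) had 268, 331 and 242 CPM in uncloned DM and 149, 154 and 143 CPM in uncloned EM, against 75.3, 74.4 and 80.0 CPM in the gland. The 3 groups of Itpr3 did not overlap, and the log2 fold change over the gland was 1.87 ± 0.11 in DM and 0.95 ± 0.11 in EM (adjusted p = 5.25e-08 and 1.28e-05). Itpr1, the IP3 receptor best known from neurons, also stood above the gland, at 62.6 ± 12.2 CPM in DM and 92.7 ± 1.15 CPM in EM against 8.13 ± 2.46 CPM (SD, n = 3 each).

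For Itpr3, DM was above EM by 0.92 ± 0.11 in uncloned organoids (adjusted p = 1.42e-04), 0.82 ± 0.10 in WT clones (adjusted p = 0.00432) and 0.51 ± 0.10 in labelled KO clones (adjusted p = 0.028). The KO call was lost when any 1 of its 4 libraries was left out (adjusted p = 0.0875 to 0.181). Itpr2 differed by -0.19 ± 0.13 in uncloned organoids (adjusted p = 0.291) and -0.29 ± 0.10 in WT clones (adjusted p = 0.0842). Without the DM library of line 8 the uncloned difference passed the test (-0.36, adjusted p = 0.0127). In labelled KO clones it fell to 78.1 and 72.6 CPM in DM, against 158 and 144 CPM in EM (-1.0035 ± 0.10, adjusted p = 0.00429). The difference of that change from the one in WT clones was -0.71 ± 0.14 and did not pass the test (adjusted p = 0.307, and 0.0282 with DESeq2).

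Within a library, the ratio of 2 genes does not depend on scaling. Itpr2 stood to Itpr3, in counts per kb of exon, at 0.131 to 0.254 in uncloned DM and 0.370 to 0.411 in uncloned EM, against 0.136 to 0.178 in the gland. The DM and gland ranges overlapped, and EM lay above both (exact two-sided permutation p = 0.10 for each EM difference, the smallest that 3 against 3 allows). Clones gave the same order, with 0.161 to 0.167 in DM and 0.465 to 0.478 in EM for labelled KO, and 0.118 to 0.120 in DM and 0.246 to 0.269 in EM for WT. With 2 clones a group the smallest p that this permutation test can give is 0.333, and the ratios were given no other test.

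Stim1, the calcium sensor of the store (chr7:102267806-102437319, plus strand), had 29.7, 33.1 and 39.2 CPM in uncloned DM and 53.0, 49.7 and 51.6 CPM in uncloned EM, against 29.7, 37.4 and 46.9 CPM in the gland. DM lay below EM (-0.60 ± 0.14, adjusted p = 0.00998) and overlapped the gland. EM was above the gland (0.43 ± 0.15, adjusted p = 0.0234), a call lost without gland 6 (0.0882), gland 7 (0.0593) or EM line 6 (0.0549). Without the DM library of line 6 the DM difference from EM was -0.49 (adjusted p = 0.0504). DM was also below EM in WT clones, at 56.6 and 78.5 against 101 and 110 CPM (-0.65 ± 0.17, adjusted p = 0.0432), a call lost without WT clone 1 in EM (adjusted p = 0.119), clone 2 in EM (0.161) or clone 1 in DM (0.12). In labelled KO clones the difference was -0.33 ± 0.17 (adjusted p = 0.282).

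Orai2, a pore subunit of store-operated entry (chr5:136147459-136170713, minus strand), showed the opposite order to the gland. It had 29.9, 28.1 and 22.7 CPM in uncloned DM and 7.39, 6.29 and 5.51 CPM in uncloned EM, against 0.888, 1.46 and 1.80 CPM in the gland. No groups overlapped. Over the gland the log2 fold change was 4.24 ± 0.24 in DM (adjusted p = 2.71e-08) and 2.16 ± 0.26 in EM (adjusted p = 1.46e-05). DM exceeded EM in every line and clone: 4.05-, 4.47- and 4.12-fold in uncloned lines 6, 7 and 8, 2.74- and 2.71-fold in labelled KO clones 1 and 2, and 3.93- and 4.34-fold in WT clones 1 and 2. The fitted change was 2.07 ± 0.17 in uncloned organoids (adjusted p = 1.4e-05), 1.45 ± 0.11 in KO clones (adjusted p = 0.00255) and 2.04 ± 0.11 in WT clones (adjusted p = 5.73e-04).

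Its paralogue Orai1, the subunit best known from T cells, was at 6.17 CPM in uncloned DM and 7.15 CPM in uncloned EM on average, against 13.1 CPM in the gland. With scaling by total counts instead, Orai1 was above the gland by 0.88 in DM and 1.18 in EM (log2, adjusted p = 0.00142 and 1.51e-04). The Orai2 to Orai1 ratio per kb was 1.49 to 1.96 in uncloned DM and 0.232 to 0.501 in uncloned EM, against 0.0283 to 0.0487 in the gland, so Orai2 was the lesser of the pair in gland and EM and the greater in DM. The ratio was 40.5 times the gland's in DM and 8.44 times in EM (exact p = 0.10 for each, the smallest possible). In clones it was 1.21 to 1.34 in DM and 0.349 to 0.357 in EM for labelled KO, and 0.812 to 0.988 in DM and 0.181 to 0.215 in EM for WT. The ratio of Stim1 to Stim2 stayed between 0.367 and 0.640 in all 17 libraries.

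**Figure D2:**
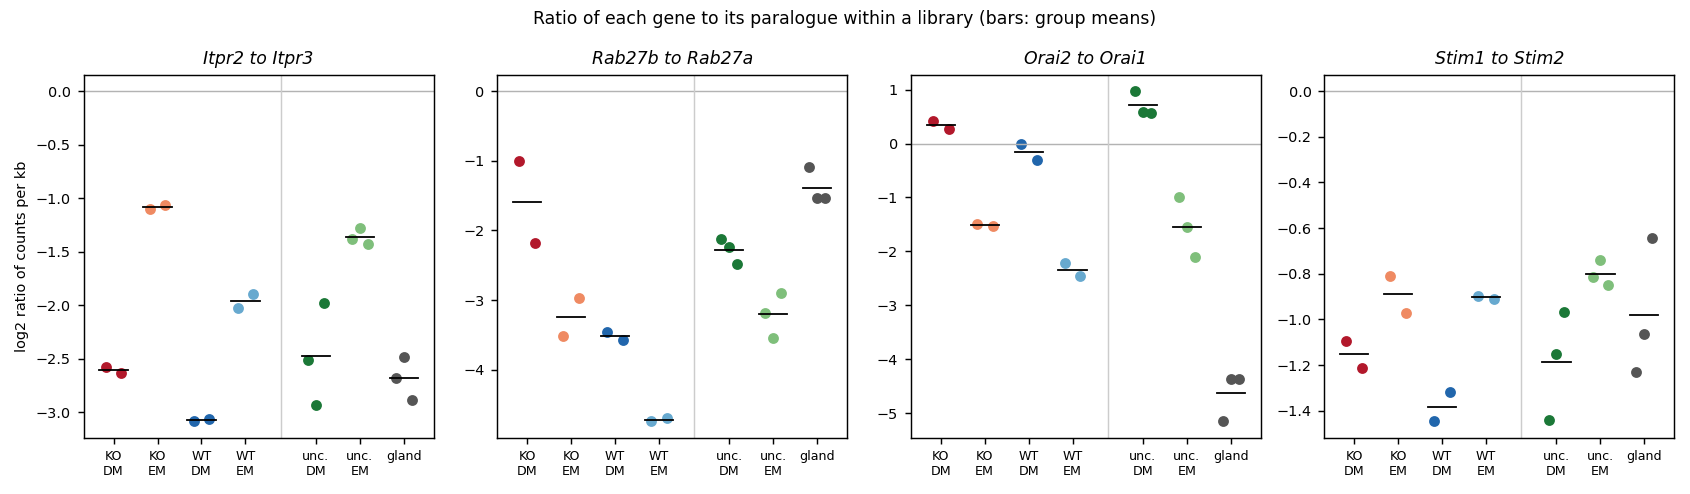
Log2 ratio of counts per kb of each gene to a paralogue in every library (points) with group means (bars); 0 means equal levels. The Orai2 to Orai1 ratio is above equality in uncloned DM (1.49 to 1.96) and below it in uncloned EM and gland, and Stim1 to Stim2 stays below equality in every library.

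Kcnn4, the intermediate-conductance calcium-activated potassium channel (chr7:24370263-24386690, plus strand), had 32.3, 41.6 and 12.4 CPM in uncloned DM and 4.11, 2.60 and 4.14 CPM in uncloned EM, against 40.3, 31.9 and 37.5 CPM in the gland. Line 8 in DM stood apart at 12.4 CPM, still above every EM library. DM exceeded EM by 3.00 ± 0.38 (adjusted p = 2.27e-04). DM and gland overlapped and did not differ past the test (-0.35 ± 0.35, adjusted p = 0.373), while EM was below the gland (-3.34 ± 0.40, adjusted p = 1.3e-05).

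In clones Kcnn4 had 82.5 and 69.1 CPM in labelled KO in DM and 9.70 and 10.7 CPM in labelled KO in EM, beside 73.4 and 45.5 CPM in WT in DM and 4.37 and 2.72 CPM in WT in EM. DM exceeded EM by 2.89 ± 0.29 in labelled KO (adjusted p = 0.00459) and 4.06 ± 0.31 in WT clones (adjusted p = 0.00136). Without KO clone 2 in EM the first became 2.96 with adjusted p = 0.0513. Labelled KO and WT clones overlapped in DM and not in EM, where KO was higher by 1.52 ± 0.30 (adjusted p = 0.0269), a call lost without WT clone 2 (0.121), KO clone 1 (0.0963) or KO clone 2 (0.133) in EM.

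Ano1, the apical calcium-activated chloride channel (chr7:144588549-144751974, minus strand), was close to the gland. It averaged 110 ± 16.5 CPM in uncloned DM and 73.8 ± 11.1 CPM in uncloned EM, against 84.6 ± 6.58 CPM in the gland (SD, n = 3 each). DM was above EM (0.58 ± 0.13, adjusted p = 0.0067) and above the gland (0.38 ± 0.13, adjusted p = 0.0219). The call against the gland was lost without DM line 7 (adjusted p = 0.0756) or gland 6 (0.0692) or 8 (0.0628). In clones it had 211 and 180 CPM in labelled KO in DM and 69.2 and 77.8 CPM in labelled KO in EM, a change of 1.41 ± 0.41 that missed the threshold (adjusted p = 0.0841) and passed it with the clone as a block (adjusted p = 0.00452). WT clones had 76.3 and 196 CPM in DM and 112 and 167 CPM in EM, which overlapped.

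Slc12a2, the basolateral sodium-potassium-chloride cotransporter that loads the cell with chloride (chr18:57878678-57946821, plus strand), averaged 88.5 ± 16.6 CPM in uncloned DM and 72.6 ± 2.61 CPM in uncloned EM, against 55.0 ± 4.05 CPM in the gland. Both were higher than the gland (0.69 ± 0.13, adjusted p = 4.68e-04, and 0.40 ± 0.13, adjusted p = 0.0141). Without gland 7 the EM difference was 0.36 (adjusted p = 0.0513). WT clones 1 and 2 stood apart from each other, with 155 and 251 CPM in DM and 50.5 and 155 CPM in EM. Labelled KO clones had 171 and 154 CPM in DM and 88.5 and 91.5 CPM in EM. DM exceeded EM in all 4 clones, by 0.85 ± 0.47 in labelled KO and 0.98 ± 0.47 in WT (adjusted p = 0.328 and 0.207). The WT value was 0.39 to 2.00 when 1 library was left out, with 2.00 and a pass without WT clone 2 in EM (adjusted p = 0.0191). Both labels passed the test with the clone as a block (adjusted p = 0.0315 and 0.0079).

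Aqp5, the apical water channel of acinar cells (chr15:99590782-99594829, plus strand), was the most abundant of the 10 per kb in the gland, at 128 CPM per kb against 13.5 for Ano1, the next. It had 20.0, 24.2 and 22.2 CPM in uncloned DM and 1.99, 1.61 and 2.15 CPM in uncloned EM, against 353, 295 and 353 CPM in the gland. The 3 groups did not overlap, and mean DM and EM levels were 6.63% and 0.575% of the gland mean. In WT clones Aqp5 had 20.9 and 29.6 CPM in DM and 4.46 and 3.61 CPM in EM (2.64 ± 0.42, adjusted p = 0.0097). Leaving out WT clone 1 or 2 in EM gave adjusted p = 0.0511 and 0.0534.

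In labelled KO clones Aqp5 went the other way. KO clones 1 and 2 had 0.308 and 0.0531 CPM in DM, which are 6 and 1 counts, and 1.06 and 1.51 CPM in EM. DM was 0.290 and 0.0351 times EM in the 2 KO clones, while it was 4.68 and 8.20 times EM in the WT clones and 10.03, 15.03 and 10.3 times EM in the uncloned lines. The fitted DM over EM change in KO clones was -2.78 ± 0.58 (adjusted p = 0.0351). That call was lost without KO clone 1 in EM (adjusted p = 0.0981), clone 2 in EM (0.165) or clone 2 in DM (0.104), and the value was -4.45 to -2.04 when 1 library was left out. Pooled over both KO clones the level in DM was 0.183 CPM (95% Poisson interval 0.0734 to 0.376, counting error only).

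Against WT, labelled KO clones were lower in DM by -7.07 ± 0.58 (adjusted p = 0.00734) and, without passing the test, in EM by -1.65 ± 0.44 (adjusted p = 0.0618, and 0.00134 with DESeq2). Leaving out KO clone 1 in DM gave -8.73 with adjusted p = 0.0509. The difference between the KO and WT responses to DM was -5.42 ± 0.71. It did not pass the test over all genes (adjusted p = 0.227), and edgeR called none of 14282 genes there, with 1126 at an unadjusted p under 0.05. With the clone as a block Aqp5 passed (-5.39, adjusted p = 0.0373, 70 genes called), as it did with DESeq2 (adjusted p = 4.58e-09, 179 genes called). Summed duct markers were 9638 to 10350 CPM in labelled KO and 14100 to 15630 CPM in WT clones in DM. Ltf, the most abundant of the 9, made up 45.3% of the mean sum in labelled KO and 53.8% in WT, and the mean sums without it were 5467 CPM in labelled KO and 6864 CPM in WT. The lowest adjusted p among the 9 in edgeR's test was 0.0526, for the keratin Krt18 (-0.83 ± 0.19). Summed acinar markers were 3523 to 3824 CPM in labelled KO and 1204 to 3430 CPM in WT. Wfdc18 made up 99.8% of the mean sum under each label. The mean sums without it were 7.494 CPM in labelled KO and 5.585 CPM in WT. The part of these lists in the Aqp5 difference was not tested.

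**Figure D3:**
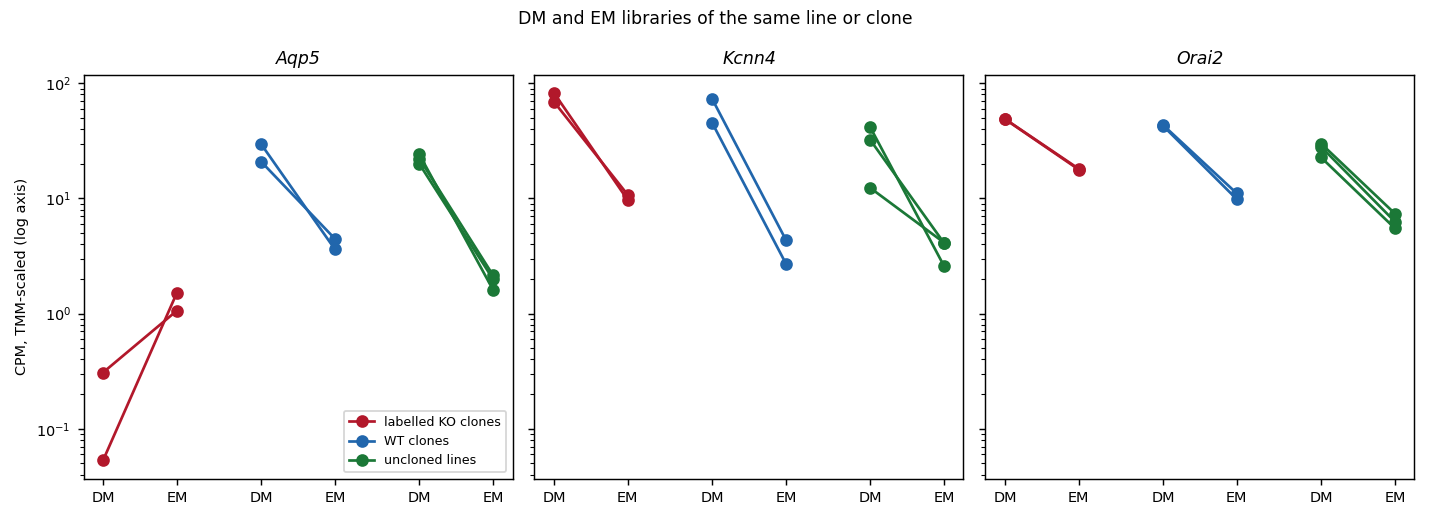
CPM (log axis) of Aqp5, Kcnn4 and Orai2 in DM and EM, with a line joining the 2 libraries of each clone or uncloned line. Aqp5 is lower in DM than in EM in both labelled KO clones and higher in both WT clones and all 3 uncloned lines, while Kcnn4 and Orai2 are higher in DM in all 7 pairs.

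Rab27b, a small GTPase of regulated granule secretion (chr18:69979131-70141605, minus strand), had 51.8, 48.0 and 45.4 CPM in uncloned DM and 16.9, 13.8 and 13.1 CPM in uncloned EM, against 117, 97.3 and 75.1 CPM in the gland. The groups did not overlap. In clones it had 70.9 and 64.8 CPM in labelled KO in DM and 30.3 and 43.9 CPM in labelled KO in EM, beside 60.2 and 69.3 CPM in WT in DM and 21.7 and 19.9 CPM in WT in EM. DM exceeded EM by 0.87 ± 0.18 in labelled KO (adjusted p = 0.0341) and by 1.64 ± 0.19 in WT clones (adjusted p = 0.0035). The KO call was lost when any 1 of its 4 libraries was left out (adjusted p = 0.0513 to 0.165). Labelled KO and WT differed in EM (0.83 ± 0.18, adjusted p = 0.0358) and overlapped in DM. That EM call was lost with only the libraries compared (0.83, adjusted p = 0.0637). The EM difference was 0.53 to 1.08 when 1 library was left out. The call was lost without WT clone 1, WT clone 2 or KO clone 2 in EM.

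Its paralogue Rab27a, which also docks granules, set the 2 labels apart in DM. Rab27a averaged 79.2 ± 39.2 CPM in labelled KO and 271 ± 42.1 CPM in WT clones in DM (-1.77 ± 0.31, adjusted p = 0.0297). That call was lost without KO clone 1 in DM. The Rab27b to Rab27a ratio per kb was 0.179 to 0.231 in uncloned DM and 0.0860 to 0.135 in uncloned EM, against 0.344 to 0.468 in the gland, with no overlap. In clones it was 0.220 to 0.5004 for labelled KO and 0.0837 to 0.0907 for WT in DM. In EM it was 0.0871 to 0.127 for labelled KO and 0.0375 to 0.0388 for WT, so the labels did not overlap in either medium.

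Counted over the 10 genes, 6 were higher and 1 lower in uncloned DM than in uncloned EM, where 30.3% of 13713 genes were called (17.2% higher and 13.2% lower). For 7 of the 10 the groups did not overlap, as for 47.6% of all genes. Total-count scaling turned the all-gene split of 2352 higher and 1806 lower into 1952 and 2597. The 10 genes' median log2 change was 0.75, beside 0.00 over all genes tested. In WT clones 5 were higher and 1 lower, with 15.7% of 14282 genes called (9.61% higher and 6.13% lower), and the medians were 0.90 and 0.00. The clone groups did not overlap for 8 of the 10, against 58.6% of all genes. In labelled KO clones 4 were higher and 2 lower, with 8.35% called (4.94% higher and 3.41% lower), and the medians were 0.85 over the 9 genes with counts and 0.00 over all genes. The groups did not overlap for 9 of the 10, against 58.1% of all genes. Itpr3, Kcnn4, Rab27b and Orai2 were higher in DM in all 3 backgrounds. Myoepithelial markers summed to 137 to 231 CPM in uncloned DM against 6.13 to 7.22 CPM in uncloned EM. Labelled KO clones had 32.1 to 36.9 CPM in DM against 1.31 to 1.77 CPM in EM. WT clones had 11.7 to 30.1 CPM in DM against 1.43 to 3.71 CPM in EM. In the gland the list summed to 297 to 312 CPM, and Myocd was at 0 there as in all 3 DM groups. The part of these markers in the differences between media was not tested.

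Labelled KO against WT gave 4 higher and 1 lower in EM, with 9.8% of genes called (5.38% higher and 4.41% lower), and 0 higher and 3 lower in DM, with 5.47% called (2.39% higher and 3.08% lower). The groups did not overlap for 8 of the 10 in EM, against 61.6% of all genes, and for 4 in DM, against 52.5%. These contrasts use the same 8 clone libraries as those between media. At an unadjusted p under 0.05, and with DESeq2, 0 were likewise higher in DM. The median of the 10, with Chrm3 at its bound, was -0.11 in EM and 0.02 in DM, beside 0.00 and -0.01 over all genes. The 4 higher in EM were Itpr2 (0.68 ± 0.10, adjusted p = 0.0103), Kcnn4, Rab27b and Orai2 (0.78 ± 0.11, adjusted p = 0.0108). Of these, 2 were called without WT clone 1 in EM, 1 without WT clone 2, 1 without KO clone 1 and 0 without KO clone 2. Itpr3 was lower in DM, with 284 and 274 CPM in labelled KO and 395 and 396 CPM in WT (-0.50 ± 0.10, adjusted p = 0.0395), and that call was lost without any 1 of the 4 libraries (adjusted p = 0.0742 to 0.167) and with total-count scaling (0.0603).

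Against the gland, 5 of the 10 were higher and 3 lower in uncloned DM, where 75.5% of genes were called (38.1% higher and 37.4% lower), and 5 were higher and 4 lower in uncloned EM, where 74.8% were (37.4% each way). The groups did not overlap for 7 of the 10 in DM and 9 in EM, against 77% and 79.3% of all genes. The 2 comparisons share the gland libraries. Their medians were 0.11 and 0.10, beside 0.02 and 0.01 over all genes. Scaling by total counts raised the median of all genes by 1.97 in DM and 2.06 in EM (log2), with 11516 genes then called higher and 1270 lower in DM. Kcnn4 (1.62), Rab27b (0.99) and Stim1 (1.80) then stood above the gland in DM, as did Ano1 in EM (1.87). Aqp5 stayed below with either scaling, at -3.91 and -1.94 in DM and -7.44 and -5.39 in EM, and Chrm3 in EM was -0.35 (adjusted p = 0.229) by total counts. Basal markers summed to 6144 to 7869 CPM in uncloned DM and 3906 to 4229 CPM in uncloned EM, against 162 to 207 CPM in the gland, with 7 of 7 called higher in each medium. Duct markers summed to 13210 to 13480 CPM in uncloned DM and 14060 to 14350 CPM in uncloned EM, against 2291 to 2900 CPM in the gland, with 8 of 9 called higher in DM and 9 of 9 in EM. Fibroblast markers summed to at most 0.538 CPM in uncloned organoids against 656 to 788 CPM in the gland, and immune markers to 16.5 to 22.1 CPM in DM and 14.6 to 23.9 CPM in EM against 186 to 288 CPM, with Ptprc at 0 in organoids. Cd68 made up 87.0% of the mean immune sum in DM and 94.5% in EM, and Lyz2 72.8% in the gland. Without that top gene the mean sums were 2.60 CPM in DM, 1.02 CPM in EM and 60.2 CPM in the gland. The part of these lists was not tested.

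Per kb, the order of the 10 also differed between groups. In the gland Aqp5 led, followed by Ano1, then Rab27b and Itpr3, whose ranges overlapped, and Orai2 was last at 0.227 CPM per kb. In uncloned DM Itpr3 led at 31.1 CPM per kb, Ano1 followed at 17.6, Aqp5 and Slc12a2 overlapped at 8.52 and 8.10, and Chrm3 was last at 0.451. In uncloned EM Itpr3 led at 16.5, and Aqp5, Kcnn4 and Chrm3 closed the order at 0.738, 0.707 and 0.638, each overlapping the next. In labelled KO clones in DM Ano1 and Itpr3 overlapped at 31.3 and 31.0 CPM per kb and Aqp5 stood at 0.0695.

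**Figure D4:**
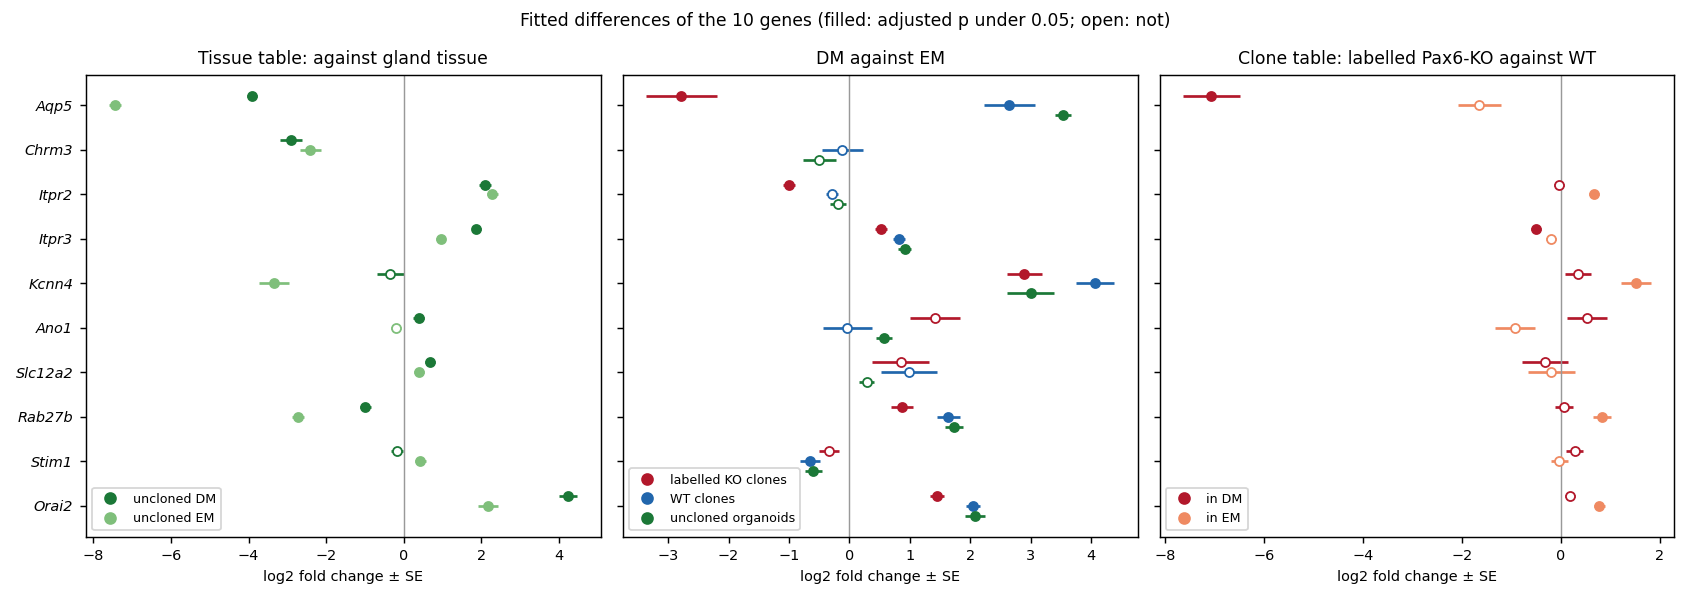
Log2 fold change ± SE from edgeR for the 10 genes against the gland (left), DM against EM (middle) and labelled Pax6-KO against WT clones (right); filled points passed the test, and Chrm3 is left out of each contrast with KO libraries at 0. Aqp5 in DM against EM lies at -2.78 in labelled KO, 2.64 in WT clones and 3.53 in uncloned organoids.

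Other genes of the pathway, in 5 lists by role, were described by their counts. Over all genes tested, 38.1% were higher and 37.4% lower in uncloned DM than in the gland. By total counts these were 11516 and 1270 of 13713 genes. In DM against EM, 17.2% were higher and 13.2% lower in uncloned organoids, and 9.61% and 6.13% in WT clones. For labelled KO against WT in DM the shares were 2.39% and 3.08%. The list counts were not tested against these shares. Of 19 receptor and G protein genes, 13 were tested in the uncloned table: 5 were higher and 8 lower in DM than in the gland (6 and 5 by total counts), and 1 was higher and 3 lower in DM than in EM. Rgs4, which shortens G protein signals, was at 41.5 ± 13.2 CPM in DM and 1.79 ± 0.403 CPM in EM, against 0.823 ± 0.178 CPM in the gland. Plcb4, a phospholipase C, was lower than the gland with either scaling (-3.64 ± 0.17, adjusted p = 6.92e-09). Adra1a, an adrenergic receptor, had 0 counts in both organoid media, at least 470-fold below the gland in DM and 502-fold in EM. P2ry2, a nucleotide receptor, fell in DM against EM (-1.74 ± 0.23, adjusted p = 2.79e-04), as did Vipr1, a receptor for vasoactive intestinal peptide (-1.13 ± 0.17, adjusted p = 7.08e-04). P2ry2 was above the gland in both media, at 7.02 ± 2.19 CPM in DM and 23.5 ± 4.43 CPM in EM against 0.15 ± 0.13 CPM.

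Among clones, 1 receptor-list gene of 11 tested was higher and 2 were lower in labelled KO than in WT in DM. Vipr1 averaged 3.76 ± 1.97 CPM in labelled KO and 27.1 ± 14.9 CPM in WT (-2.85 ± 0.48, adjusted p = 0.0278). Gnaq, the G protein subunit that muscarinic receptors use, averaged 224 ± 20.4 and 141 ± 15.4 CPM (0.67 ± 0.12, adjusted p = 0.0317). The Vipr1 and Gnaq calls were lost without KO clone 1 in DM. In EM, Vipr1 was lower (-2.34 ± 0.46, adjusted p = 0.0256) and Gnaq higher (0.51 ± 0.12, adjusted p = 0.0439) in the same way.

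Of 12 calcium store and entry genes tested, 3 were higher and 7 lower in uncloned DM than in the gland (10 and 2 by total counts), and 3 were higher and 3 lower in DM than in EM. Atp2a3, a calcium pump of the endoplasmic reticulum, was at 0.946 ± 0.495 CPM in uncloned DM and 6.40 ± 2.46 CPM in uncloned EM, against 15.3 ± 3.90 CPM in the gland. It was also lower in DM than in EM in labelled KO (-3.58 ± 0.51, adjusted p = 0.0121) and WT clones (-4.84 ± 0.59, adjusted p = 0.00437). Saraf, a brake on store-operated entry, was at 73.6 ± 2.49 CPM in DM and 91.1 ± 4.72 CPM in EM, against 333 ± 25.3 CPM in the gland. By total counts Saraf was slightly lower than the gland in DM (-0.20) and higher in EM (0.19), and Atp2a3 was higher in EM (0.79). Atp2b4, a plasma membrane calcium pump, was higher in DM than in EM in uncloned organoids (3.93 ± 0.53, adjusted p = 3.03e-04), WT clones (3.27 ± 0.68, adjusted p = 0.0213) and labelled KO clones (adjusted p = 0.0144). The KO clones had 83 counts in DM and 1 in EM, a ratio of 85.2 (95% interval 15.3 to 3360, counting error only).

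Of 20 other ion transport genes tested, 15 were higher and 4 lower in uncloned DM than in the gland (19 and 1 by total counts), and 3 were higher and 9 lower in DM than in EM. Kcnma1, the large-conductance calcium-activated potassium channel, had 3 counts in DM and 3 in EM against 824 in the gland, a ratio of 1140 in DM (95% interval 389 to 5510, counting error only). Atp1b1, a beta subunit of the sodium pump, was lower in DM than in EM in labelled KO (-1.99 ± 0.30, adjusted p = 0.0147) and in WT clones (-2.18 ± 0.31, adjusted p = 0.00596). Ano6, an ion channel and lipid scramblase, was higher in DM in uncloned organoids (1.03 ± 0.11, adjusted p = 6.85e-05) and in WT clones (1.45 ± 0.18, adjusted p = 0.00437). Slc4a4, a sodium bicarbonate cotransporter, was lower in labelled KO than in WT clones in DM (-1.46 ± 0.26, adjusted p = 0.0308). That call was lost without KO clone 1 in DM.

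Among 6 water channels beside Aqp5, 2 were higher and 3 lower in uncloned DM than in the gland (3 and 3 by total counts). Aqp8 had 0 counts in both organoid media and 154 to 194 CPM in the gland, at least 4140-fold lower in DM and 4430-fold in EM. Aqp3 and Aqp4, basolateral water channels, were both far above the gland, and Aqp4 is also among the duct markers summed above. Aqp3 averaged 87.3 ± 10.3 CPM in uncloned DM and 90.0 ± 17.1 CPM in uncloned EM, against 0.225 ± 0.286 CPM in the gland. Aqp4 averaged 446 ± 140 CPM in uncloned DM and 62.1 ± 29.4 CPM in uncloned EM, against 3.57 ± 1.15 CPM in the gland, and was also higher in DM than in EM (2.84 ± 0.33, adjusted p = 1.19e-04).

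Of 23 granule exocytosis genes tested, 8 were higher and 12 lower in uncloned DM than in the gland (14 and 7 by total counts). In DM against EM, 9 were higher and 4 lower in uncloned organoids, and 6 were higher and 1 lower of 20 in WT clones. Unc13b, a vesicle priming factor, averaged 36.0 ± 1.85 CPM in DM and 45.7 ± 1.69 CPM in EM, against 293 ± 13.4 CPM in the gland. Rab26, a granule GTPase of acinar cells, had 1 count in DM against 639 in the gland, a ratio of 2520 (95% interval 452 to 99400, counting error only). Stx11, a membrane fusion protein best known from lymphocytes, was higher in DM than in EM in uncloned organoids (1.71 ± 0.26, adjusted p = 7.23e-04) and WT clones (1.67 ± 0.28, adjusted p = 0.0106). Myo5a, a granule motor, was likewise higher in uncloned DM (0.66 ± 0.10, adjusted p = 4.98e-04).

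The genes whose levels followed Aqp5 most closely were found by the root mean square difference of log2(CPM + 0.5), centred within each table, over all 17 libraries. Of 11765 named genes, Smpdl3a, a lysosomal phosphodiesterase, was nearest at 1.10, followed by Oit1 at 1.21, Col7a1, an anchoring fibril collagen, at 1.22, Atp13a4 at 1.25 and Sidt1 at 1.28, against a median of 2.55 over all genes compared. Smpdl3a averaged 0.128 CPM in labelled KO and 12.0 CPM in WT clones in DM. In EM it was at 0 in labelled KO and averaged 4.80 CPM in WT clones. Its means were 20.5 CPM in uncloned DM and 12.3 CPM in uncloned EM, against 270 CPM in the gland. The likeness is over all libraries, and not every gene shared the lower Aqp5 level in DM than in EM in labelled KO clones. There Col7a1 averaged 15.9 CPM in DM and 5.02 CPM in EM, the opposite direction. Atp13a4 averaged 0.105 and 0.101 CPM. Oit1 (1.63 and 2.07 CPM) and Sidt1 (2.54 and 4.28 CPM) were lower in DM. These genes were chosen by this likeness, so their values are a description.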

How the data were processed

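The deposited values are whole-number counts per gene, not normalised, in 2 tables. The submitters' processing notes name STAR, featureCounts and the GRCm38 build; versions, annotation and strand setting are not given there. Per the labels' protocols the library kit was stranded and selected polyadenylated RNA. IDs were matched to GENCODE M21 (36429 of 38293 and 55227 of 55487), which also gave exon lengths.

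Counts were analysed with edgeR 4.0.16 in R 4.3.3: filterByExpr (13713 and 14282 genes kept), trimmed-mean scaling, 1 mean per group and the quasi-likelihood test, with 6 and 4 residual degrees of freedom. Calls needed an adjusted p (Benjamini-Hochberg, all genes of that comparison) under 0.05, and each SE is the size of the log2 change over root F. Steps were tested on simulated data. Paralogue ratios add 0.5 to each count. P-values measure the spread between these lines or clones, part of which may be technical.

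The genes and lists were chosen with earlier results of these data known. Genes were named by rule: all 10, Pax6, paralogues and the 5 most like Aqp5. The rule also took up to 2 called genes of each list and direction with the smallest p. Htra4, Zmynd11, Mtr, Dip2c, Larp4b, Gm47021 and Gm5445 were added after values were seen. One gene that the rule names is not reported here. Of the list symbols, 2 were not matched. Same-numbered libraries share a line or clone per the labels. The reported fits do not use this pairing, which enters only as a block in an alternative. Their deviations from group means correlated at 0.114 to 0.203 between uncloned EM and DM, -0.078 to 0.113 between tissue and organoids, and 0.514 and 0.60 in labelled KO and WT clones. Replicate libraries differed beyond sampling noise. Alternatives were DESeq2 1.42.0, its size factors, total-count scaling, no filter, only the libraries compared, each library left out, and the block.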

Additional observations from a re-analysis of the deposited data

Results flagged for a closer look

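Aqp5 moved in opposite directions with DM. The mean log2 DM over EM change was -2.78 in labelled Pax6-KO clones, below 0 in both clones, and it was above 0 in both WT clones and in all 3 uncloned lines. Against WT clones the difference of the responses was tested and had adjusted p = 0.227 with edgeR and 0.0373 with the clone as a block. Against uncloned lines, counted in the other table, it was not tested.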

How the results depend on the processing

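Of the paralogue ratio differences, 2 with overlapping groups changed sign when 1 library was left out: Itpr2 to Itpr3 in uncloned DM against gland without DM line 8, and Stim1 to Stim2 in labelled KO against WT in EM without KO clone 1. Scaling and filter: total-count scaling gave 8 genes above the gland in DM and moved Ano1 to 1.87 in EM, and Kcnn4 to 1.62, Rab27b to 0.99 and Stim1 to 1.80 in DM, and Itpr2 to 0.0128 in labelled KO against WT in DM. Without the filter, genes called were 3497 for DM against EM in WT and 2572 in labelled KO clones, 2947 and 2547 for labelled KO against WT in EM and DM, and 657 for the interaction, where 1 of the 10 genes was higher and 4 lower; labelled KO against WT then gave 3 lower in EM and 1 higher in DM. DESeq2 called 1894 genes for DM against EM in labelled KO clones, 1556 for labelled KO against WT in DM and 179 for the interaction, with 2 of the 10 lower in the interaction and 2 lower in labelled KO against WT in EM. With the replicate block, 3650 genes were called in WT clones, 2338 in labelled KO clones and 70 in the interaction. Of those 70, only Aqp5 is among the 10. In the contrasts fitted with the block, the pairing changed no other call of the 10 beyond those given above. Labelled KO against WT could not be fitted with the block, because each clone carries a single label. With only the libraries compared, 924 genes were called in WT clones, with 0 of the 10 lower, and 110 for labelled KO against WT in DM; 1 of the 10 was lower with DM in labelled KO clones and 2 in labelled KO against WT in EM. Leaving out 1 library at a time gave 789 to 1956 genes in WT clones, 82 to 284 in labelled KO clones, 175 to 494 and 0 to 524 for labelled KO against WT in EM and DM, and 0 to 14 for the interaction; the 0 in DM came without KO clone 1. Of the 10, it gave 3 to 5 higher in EM than gland, 0 to 3 lower in uncloned DM than EM, 0 to 1 lower in WT clones, 1 to 2 higher and 1 to 2 lower in labelled KO clones, 0 to 2 higher in labelled KO than WT in EM, and 0 to 1 higher and 0 to 2 lower in DM. It also spanned 0 for Ano1 in WT clones (-0.87 to 0.49) and in labelled KO against WT in DM (-0.0012 to 1.36), Chrm3 in WT clones (-0.27 to 0.0482), Itpr2 and Rab27b in labelled KO against WT in DM (-0.0887 to 0.0173 and -0.0305 to 0.17), Kcnn4 and Stim1 in uncloned DM against gland (-0.72 to 0.0227 and -0.31 to 0.0291), Stim1 in labelled KO against WT in EM (-0.12 to 0.0535), and Slc12a2 in the interaction (-1.16 to 0.45) and in labelled KO against WT in EM (-0.78 to 0.83) and DM (-0.63 to 0.0655). The cause was not tested. With 2 clones a group, and 6 and 1 counts for Aqp5 in labelled KO clones in DM, both the spread between clones and counting error limit the size of that fall.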
